A study of Mus musculus with 6 samples.

Results

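The genes described here encode the machinery of oxidative phosphorylation, measured in pancreatic islets of mice with and without a pancreatic deletion of Ppard (PPAR-beta). They were taken by platform symbol: symbols that start with Nduf, Uqcr or Atp5, Sdha to Sdhd, Cox4 to Cox8, and Cyc1 and Cycs. The rule found 92 of the 18193 genes measured, with 44 in complex I, 4 in complex II, 9 in complex III, 17 in complex IV and 17 in complex V, plus the carrier cytochrome c. Each gene is represented by its brightest probe set over the 6 arrays. The knockout group (Pdx1Cre;PPARbetafl/fl) carried floxed Ppard alleles and a Cre transgene under the Pdx1 promoter, a promoter used throughout the developing pancreas rather than in beta cells alone. The control group (PPARbetafl/fl) consisted of littermates with floxed alleles and no Cre. Each group had 3 arrays from different animals aged 8 weeks, of mixed background (SV 129/C57BL/6). No array from a Cre-positive mouse with intact Ppard was analysed here, so Cre and the deletion cannot be told apart in any difference below. In whole-islet RNA, fewer cells of a type and less RNA per cell cannot be told apart either.

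Oxidative phosphorylation passes electrons from NADH and succinate along protein complexes of the inner mitochondrial membrane to oxygen and uses the proton gradient built on the way to make ATP. Complex I oxidises NADH, complex II oxidises succinate, complex III passes electrons to cytochrome c, complex IV reduces oxygen, and complex V is the ATP synthase. In beta cells the ATP formed when glucose is burned closes ATP-sensitive potassium channels and so triggers insulin release. PPAR-beta is a fatty-acid-activated nuclear receptor that is known to raise fatty acid oxidation genes in muscle. Complexes I, III, IV and V also hold subunits encoded in mitochondrial DNA, which the symbol rule does not cover.

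The labels call the material beta-cells, whereas the protocol describes whole islets. The 6 beta cell markers measured had a median log2 level of 11.91, and the 4 delta and PP cell markers had one of 12.98, so other endocrine cells were present. Acinar RNA from the surrounding exocrine pancreas varied widely between arrays. Averaged over 22 acinar markers, the log2 level was 6.96 in control 1, 11.27 in control 2 and 11.20 in control 3. The knockout arrays had 8.72, 5.82 and 5.97, in the same order, so controls 2 and 3 held the most acinar RNA. The 4 alpha cell markers measured were all lower in every knockout array than in every control array (mean levels 10.58 to 10.67 in controls and 10.22 to 10.34 in knockouts), as were the 4 delta and PP cell markers (12.04 to 12.32 and 11.58 to 11.74). Of 7 immune markers, 5 were higher without overlap, while C1qa (difference -0.21) and Lyz2 (0.023) overlapped. The mean over all 7 was 6.94 to 7.29 in controls and 7.57 to 7.86 in knockouts. Among all genes, 9.06% were lower and 12.1% higher without overlap. The immune marker Laptm5 was the only cell type marker with an adjusted p under 0.05 (difference 1.34 ± 0.11, SE, limma adjusted p = 0.00425). The part of these cell types in the results below was not tested. Pairwise correlation between arrays ranged from 0.978 to 0.993. Ppard itself had log2 levels of 7.75, 7.56 and 7.12 in controls and 8.01, 8.20 and 7.70 in knockouts, so the knockout-labelled arrays showed no drop in its transcript (difference 0.49 ± 0.20, SE, limma adjusted p = 0.377). The labels name no deleted exon, and the genotype therefore rests on the labels.

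None of the 92 genes passed the test in either direction, while 200 of all 18193 genes (1.1%) did, 0.852% of genes being higher and 0.247% lower in the knockout group. The test was limma with Benjamini-Hochberg adjustment over 45037 probe sets, and a call is an adjusted p under 0.05. The lowest adjusted p among the members was 0.262. Without adjustment, 4 members (Ndufs5, Cox8a, Ndufa6 and Atp5g2) had a p under 0.05, against 14% of all genes. None of the 184 probe sets of these genes passed either, against 0.897% of all probe sets. The lowest adjusted p among them, 0.181, belonged to a dim probe set of Ndufb8 that differed by 0.62, while the bright one differed by -0.063. With a mean-variance trend in limma again none of the 92 passed (lowest adjusted p = 0.124). Differences are knockout minus control on the log2 scale throughout. They ran from -0.61 (Cox7c) to 0.23 (Cox5a), with a median of -0.055 beside a median of 0.0020 over all genes.

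A missed threshold alone does not show that levels were alike, so the intervals are given. The standard error of a member's difference was 0.11 in the median and 0.094 to 0.41 in range. For 83 of the 92 members the 95% interval of the difference lay wholly inside a 1.5-fold change in either direction (0.585 on the log2 scale), against 64.8% of all genes and 63.3% of genes brighter than the median probe set. These intervals are per gene and carry no adjustment for the number of genes. The exceptions were Ndufs5, Ndufa6, Ndufa4l2, Ndufb4, Cox7c, Cox8b, Cox6a2, Cox7b2 and Atp5g2. The members gave bright signals: 68 of 92 had a mean log2 level above 10, as had 2004 of 18193 genes. Among genes that bright, the interval lay inside 1.5-fold for 83.9% of all genes and for 67 of 68 members. The spread between arrays of a group was 0.087 (SD, median over members), beside 0.17 over all genes. Above log2 10 it was 0.068 over members and 0.094 over all genes.

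**Figure D1:**
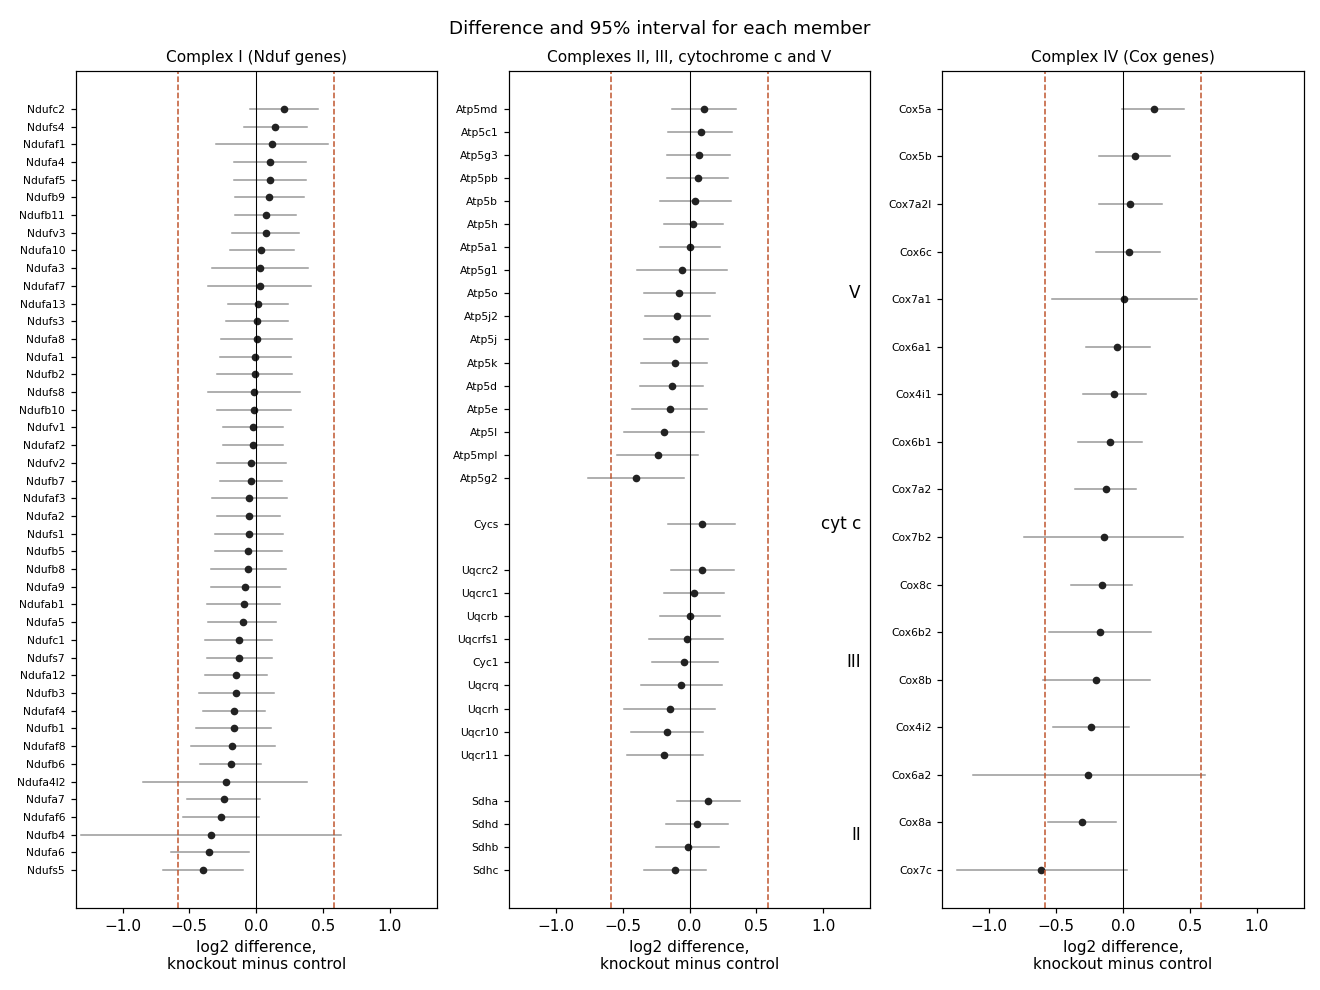
Difference between knockout and control (log2, horizontal axis) with its 95% interval for each of the 92 genes, grouped by complex; dashed lines mark a 1.5-fold change either way. The points run from -0.61 for Cox7c to 0.23 for Cox5a, and 83 of the 92 intervals stay between the dashed lines.

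More members had a lower mean in the knockout group than a higher one, 60 against 32. Over all genes 9028 of 18193 had a lower mean. Above log2 10, 41 of 68 members and 847 of 2004 genes were lower, with median differences of -0.032 and 0.034. The split over all 92 members moved with the scaling, in both directions. With each array centred on its own median it was 48 lower of 92, and the median difference was -0.0017 where that of all genes was 0.055. With quantile normalization applied again it was 65 lower of 92, and these medians were -0.08 and 0.0042. With 1 array left out it ran from 51 lower (without control 3) to 63 lower (without control 2). The groups did not overlap in 23 of 92 members (25%), near the 21.2% of all genes and the 26.8% of genes brighter than the median probe set. Of these, 15 members (16.3%) were lower in every knockout array than in every control array, against 9.06% of all genes, and 8 (8.70%) were higher, against 12.1%. Among the 84 members brighter than the median probe set, 13 were lower without overlap (15.5%, against 10.4% of genes that bright). Above log2 10 the share of members lower without overlap was 11.8%, near the 11.3% of all genes that bright. The share higher without overlap was 11.8% there, against 23.5%, and both directions together made 23.5%, against 34.8%.

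In complex I, the NADH dehydrogenase, 14 of 44 genes had higher and 30 lower means, and the median difference was -0.046. The core subunits carry the flavin and the iron-sulfur clusters. Their 6 measured genes (Ndufv1, Ndufv2, Ndufs1, Ndufs3, Ndufs7 and Ndufs8) differed by -0.13 to 0.0080. All 6 overlapped between groups, and all 6 intervals lay inside 1.5-fold. Most genes did so too: 21.2% of all genes did not overlap. The interval lay inside 1.5-fold for 64.8% of all genes and 83.9% of those above log2 10. These shares also stand beside the counts of the other complexes below. Ndufv1, which binds NADH through its flavin, had 11.09, 11.12 and 11.14 in controls and 11.09, 11.08 and 11.12 in knockouts. Its arrays thus spanned 0.058 log2 units in all.

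The 30 accessory genes, which encode subunits around that core, held the larger differences of complex I. Ndufs5, a small accessory subunit of the membrane arm, had log2 levels of 10.12, 9.80 and 10.07 in controls and 9.55, 9.71 and 9.52 in knockouts. Every knockout array lay under every control array, by a mean of -0.40 ± 0.13 (SE, limma adjusted p = 0.262). Ndufa6, a subunit of the LYR family, had 11.03, 11.04 and 11.28 in controls and 10.64, 10.87 and 10.81 in knockouts. These groups did not overlap either, and the difference was -0.35 ± 0.12 (adjusted p = 0.314). Ndufa7 (-0.24), Ndufb6 (-0.19) and Ndufa12 (-0.15) were the other accessory genes lower without overlap. Ndufc2 (0.21), Ndufs4 (0.14) and Ndufb11 (0.073) were higher without overlap. Ndufs4 is needed for a late step in the assembly of complex I, and its levels were 10.91, 10.99 and 11.02 in controls and 11.16, 11.08 and 11.10 in knockouts. For none of these genes did the difference pass the test.

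The remaining accessory genes overlapped between groups and differed by -0.34 (Ndufb4) to 0.10 (Ndufa4). The brightest of complex I, Ndufb7, stood at 13.29 ± 0.044 in controls and 13.25 ± 0.041 in knockouts (SD, n = 3). Its second probe set read 10.65, 10.59 and 10.71 in controls and 10.52, 10.42 and 10.23 in knockouts, without overlap (-0.26 ± 0.12, adjusted p = 0.411). The dimmest, Ndufb4, had 3.20, 4.26 and 2.89 in controls and 2.67 to 3.75 in knockouts, at percentile 15 of all genes, and its interval of -1.31 to 0.63 says little. These values come from its only single-symbol probe set and need not be the level of the gene. Ndufa4, which carries a complex I name but is known as a subunit of complex IV, had 11.54, 11.63 and 11.72 in controls and 11.83, 11.76 and 11.59 in knockouts. Its paralogue Ndufa4l2 was dim, at 5.34 ± 0.49 against 5.11 ± 0.26. The 8 complex I assembly factors taken by the rule (Ndufaf1 to Ndufaf8), which help to build the complex and are no part of it, differed by -0.26 to 0.12. Of these, Ndufaf6 had 6.70, 6.81 and 6.85 in controls and 6.63, 6.60 and 6.35 in knockouts, without overlap (difference -0.26 ± 0.12, adjusted p = 0.425). Ndufaf4 (-0.17) was also lower without overlap.

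Complex II, succinate dehydrogenase, joins the citric acid cycle to the chain and has no mitochondrially encoded subunit. Its 4 genes differed by -0.11 to 0.14, and all 4 intervals lay inside 1.5-fold. Sdha, the flavoprotein that oxidises succinate, had 12.01, 11.89 and 11.89 in controls and 12.06, 12.03 and 12.13 in knockouts. The groups were separate by a narrow margin (0.14 ± 0.10, adjusted p = 0.613), but its second probe set differed by -0.065. Sdhb, the iron-sulfur subunit, stood at 10.10 ± 0.060 and 10.09 ± 0.044 (SD, n = 3). The membrane anchors Sdhc (-0.11 ± 0.098) and Sdhd (0.056 ± 0.099) differed in opposite directions, Sdhc without overlap.

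Complex III passes electrons from ubiquinol to cytochrome c. Its 9 genes had a median difference of -0.039, and all 9 intervals lay inside 1.5-fold. Cyc1, the haem-bearing cytochrome c1, had 10.23, 10.35 and 10.42 in controls and 10.29, 10.31 and 10.27 in knockouts. The Rieske iron-sulfur protein gene Uqcrfs1 differed by -0.023 ± 0.12, and the core protein genes Uqcrc1 and Uqcrc2 by 0.035 ± 0.095 and 0.093 ± 0.099. On the brightest probe sets Uqcrc2 was the only gene of complex III whose groups did not overlap, with 11.70 to 11.71 in controls and 11.74 to 11.88 in knockouts. The small subunits Uqcr11 (-0.19), Uqcr10 (-0.17) and Uqcrh (-0.15) had the lowest differences, with adjusted p of 0.575, 0.589 and 0.720. The other probe sets of Uqcr10, at mean levels of 7.94 and 7.87, went the other way. They differed by 0.31 ± 0.24 with overlap and by 0.50 ± 0.22 without (adjusted p = 0.653 and 0.416). The second probe set of Uqcrh differed by -0.039. Uqcrb, the brightest of the complex, differed by 0.0040, and Uqcrq by -0.062.

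Cytochrome c (Cycs), which shuttles electrons between complexes III and IV, had 11.71, 11.66 and 11.70 in controls and 11.72, 11.90 and 11.73 in knockouts. The groups touched without overlapping, and the difference of 0.090 ± 0.10 did not pass (adjusted p = 0.777).

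Complex IV, cytochrome c oxidase, had a median difference of -0.13 over 17 genes. The order of the complexes was not stable: without control 1 complex III stood at -0.10, complex V at -0.094 and complex IV at -0.09, and after the filter on low values complex V stood at -0.077 and complex IV at -0.068. The complex IV median also depended on which genes were counted: 7 tissue-restricted isoforms, all but Cox6a2 dim here, had a median of -0.17, and the other 10 genes had one of -0.055. Cox8a, the ubiquitous form of subunit VIII, had 9.85, 9.73 and 9.82 in controls and 9.39, 9.52 and 9.57 in knockouts. All knockout arrays lay under all control arrays (-0.31 ± 0.11, adjusted p = 0.303), and its second bright probe set differed by -0.38 ± 0.11 (adjusted p = 0.202). Cox5a, a subunit that faces the mitochondrial matrix, went the other way. It had 10.95, 11.05 and 11.04 in controls and 11.23, 11.30 and 11.20 in knockouts, a difference of 0.23 ± 0.099 (adjusted p = 0.400) without overlap. Its other probe sets differed by 0.15 and 0.14.

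Cox7c showed the widest gap of all members, -0.61 ± 0.27 (adjusted p = 0.408), but at the bottom of the range. Its single-symbol probe sets are dim: the brighter read 4.18, 4.32 and 3.59 in controls and 3.69, 3.64 and 2.94 in knockouts, at percentile 19.9 of genes. The groups overlapped, since control 3 lay under knockouts 1 and 2. The dimmer probe set differed by -0.58 ± 0.19 (adjusted p = 0.268), without overlap. Among the other general subunits, Cox4i1, the general form of subunit IV, stood at 11.47 ± 0.077 in controls and 11.40 ± 0.0080 in knockouts (SD, n = 3). Cox5b (0.087), Cox6a1 (-0.042), Cox6b1 (-0.10), Cox6c (0.043), Cox7a2 (-0.13) and Cox7a2l (0.055) all had intervals inside 1.5-fold on their brightest probe sets. For Cox6a1 and Cox7a2 the second bright probe set gave a lower difference, without overlap in either gene. That of Cox6a1 read 11.62, 11.41 and 11.54 in controls and 11.13, 11.30 and 11.31 in knockouts (-0.28 ± 0.11, adjusted p = 0.375). That of Cox7a2 differed by -0.25 ± 0.11 (adjusted p = 0.410). Cox7a2l encodes a factor that joins complexes III and IV into supercomplexes, and Cox7a2 was lower without overlap, with 12.36 to 12.42 in controls and 12.19 to 12.28 in knockouts.

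Among the tissue-restricted forms, Cox6a2 stood out for its signal and its spread. It encodes the heart and skeletal muscle form of subunit VIa. It had 8.63, 9.38 and 9.27 in controls and 8.12, 9.50 and 8.89 in knockouts, a span of 1.38 log2 units at percentile 79.1 of genes. Much of the spread lay within the groups, which overlapped (-0.26 ± 0.36, adjusted p = 0.824). Its other, dim probe set read 4.77, 5.33 and 5.15 in controls and 4.60, 5.14 and 4.73 in knockouts, again lowest in knockout 1 and lower in control 1 than in controls 2 and 3. Cox6a1, the form made in most tissues, spanned 0.17 over the same arrays on its brightest probe set and ran from 11.13 to 11.62 on its second. Cox4i2, a lung- and hypoxia-linked form, was dim, with 5.39, 5.14 and 5.06 in controls and 4.96, 4.97 and 4.96 in knockouts. Cox7a1, a muscle form, had means of 4.68 and 4.69. Cox6b2, Cox7b2, Cox8b and Cox8c lay between 2.51 and 5.61 in their means over 6 arrays and differed by -0.20 to -0.14.

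**Figure D2:**
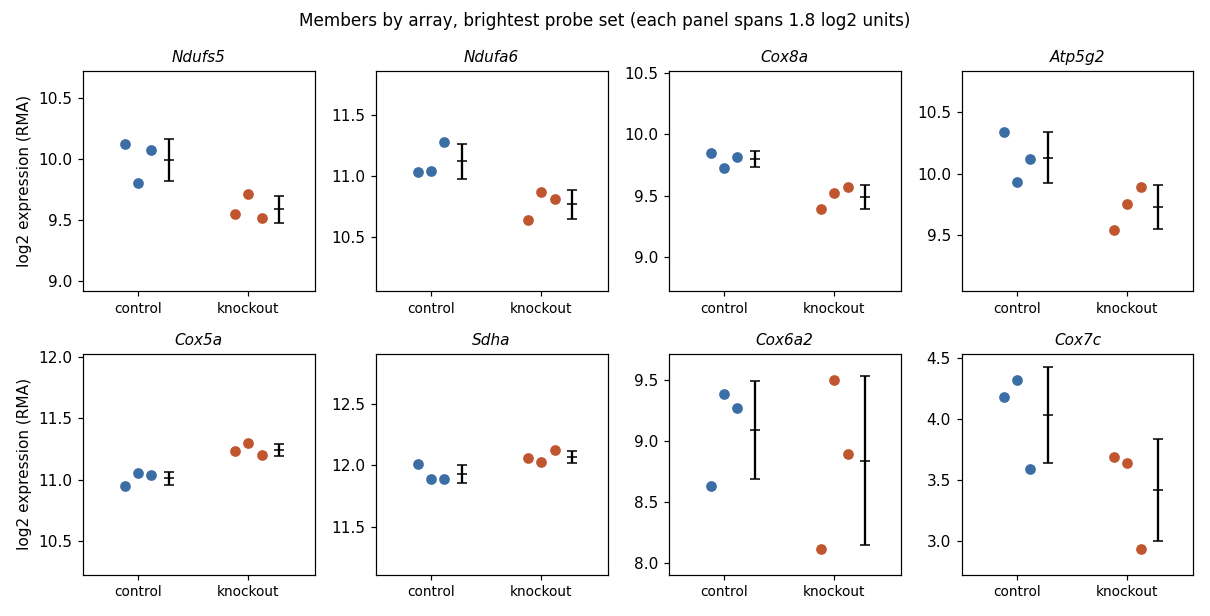
Log2 expression in each array (points) with the group mean and SD (bars, n = 3) for 8 members; every panel spans the same range of log2 units. Ndufs5, Ndufa6, Cox8a and Atp5g2 lie lower in all knockout arrays, Cox5a and Sdha lie higher in all of them, and Cox6a2 and Cox7c spread widely with overlapping groups.

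Complex V, the ATP synthase, had a median difference of -0.077 over 17 genes, and 16 of the 17 intervals lay inside 1.5-fold. The genes of its catalytic F1 head differed by -0.15 to 0.082. Atp5a1, which encodes the alpha subunit, had 13.32, 13.27 and 13.29 in controls and 13.34, 13.27 and 13.30 in knockouts. Atp5b, the catalytic beta subunit, stood at 11.71 ± 0.044 and 11.75 ± 0.13 (SD, n = 3). Atp5d was lower without overlap (-0.13 ± 0.098, adjusted p = 0.630), Atp5e differed by -0.15 and Atp5c1 by 0.082.

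The c-ring of the membrane rotor is built from one mature protein made from the genes Atp5g1, Atp5g2 and Atp5g3, and these differed unequally. Atp5g2 had 10.34, 9.93 and 10.12 in controls and 9.54, 9.75 and 9.89 in knockouts. All knockouts lay under all controls, at a difference of -0.40 ± 0.15 (adjusted p = 0.336), with knockout 3 only just under control 2. Atp5g1 (-0.054 ± 0.14) and Atp5g3 (0.068 ± 0.099) overlapped between groups. The difference between these genes was not tested. The other probe sets of Atp5g2 were dim and differed by 0.20 and 0.36, and the mean over its probe sets differed by 0.055.

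Of the 9 stalk and membrane genes of complex V, 6 had lower means. Atp5mpl, a small membrane subunit, had 10.78, 10.65 and 10.92 in controls and 10.62, 10.64 and 10.38 in knockouts. The groups were just separate, at a difference of -0.24 ± 0.13 (adjusted p = 0.498). Atp5l (-0.19), Atp5k (-0.11), Atp5j (-0.10), Atp5j2 (-0.092) and Atp5o (-0.077) overlapped on their brightest probe sets. A second bright probe set was lower without overlap for Atp5k (-0.27 ± 0.11, adjusted p = 0.375), Atp5o (-0.13) and Atp5j2 (-0.088). A further bright probe set of Atp5k overlapped (-0.23). Atp5md, needed for ATP synthase dimers, differed by 0.11 and Atp5pb, a stalk subunit, by 0.060. Atp5h, another stalk subunit, had the tightest values of all members, 12.99 to 13.01 in controls and 13.01 to 13.04 in knockouts, a span of 0.050. Its groups did not overlap (0.029 ± 0.094, adjusted p = 0.934), but its second probe set differed by -0.082.

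Where a member had further probe sets, they read the same RNA on the same arrays, so they are no independent measurement. Of 59 further probe sets above log2 8, from 41 genes, 48 had a difference of the same sign as the brightest one and 54 lay within 0.2 of it. The 5 that lay further away belonged to Cox6a1 (-0.28, against -0.042 on the brightest), Ndufb7 (-0.26 against -0.038), Ndufaf4, Ndufc2 and Sdha. The quartiles of the members' differences were -0.15 and 0.03, so lying within 0.2 says little about agreement within a gene. The limit at log2 8 also left out the probe sets of Uqcr10 at 7.94 and 7.87. They differed by 0.31 and 0.50, against -0.17 on the brightest. In Ndufa7 all 5 probe sets differed by -0.24 to -0.34, without overlap. The sign was opposite in 11, among them Ndufaf4 (-0.17 against 0.13), Sdha (0.14 against -0.065) and Uqcrb (0.0040 against -0.15). Ndufc2 differed by 0.21, 0.41 and 0.22 on its 3 bright probe sets. The probe set at 0.41 read 11.57, 10.95 and 10.94 in controls and 11.64, 11.46 and 11.60 in knockouts, so control 1 lay with the knockouts. Controls 2 and 3 are also the arrays with the most acinar RNA, and the part of that RNA in this result was not tested.

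**Figure D3:**
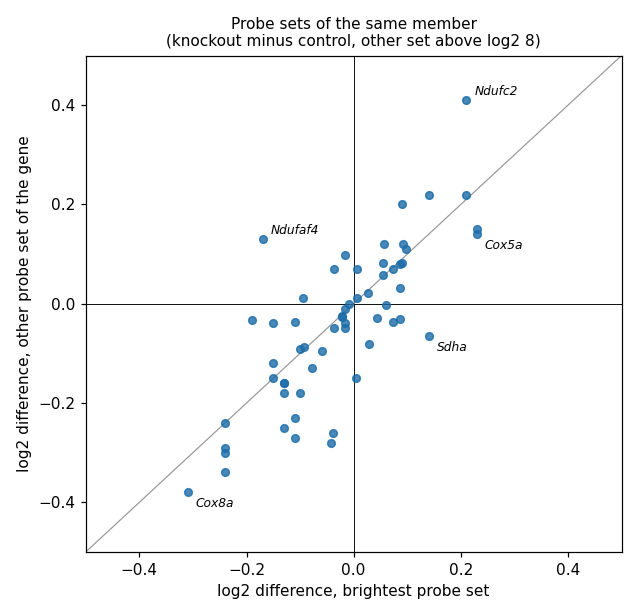
Each point is a further probe set of a member, with its log2 difference (knockout minus control, vertical axis) against that of the gene's brightest probe set (horizontal axis); the grey line marks equality. Of 59 points, 48 share the sign of the brightest probe set, and Ndufaf4 and Sdha lie in the quadrants of opposite sign.

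Across arrays the complex medians lay between -0.069 and 0.083 log2 units around the genes' own means. That spread stands beside median differences of -0.13 (complex IV) to 0.022 (complex II). After each gene's 6-array mean was taken off, the median over all 92 members was 0.0072 in control 1, -0.016 in control 2 and 0.071 in control 3. The knockout arrays had -0.022, -0.0054 and -0.038, in order. Control 3 therefore stood highest, and without it the median difference of the members was -0.010 with 51 of 92 lower. Complexes I, III, IV and V were all highest in control 3 (0.057 to 0.083), whereas complex II was at -0.00049 there. The acinar marker mean was 11.27 in control 2 and 11.20 in control 3, and its part in these medians was not tested apart from the fit below. With the acinar marker mean as a covariate the members' median difference was -0.018 and none passed (lowest adjusted p = 0.268). With it Atp5g2 differed by -0.65, Ndufs5 by -0.51, Cox8a by -0.39, Ndufa6 by -0.35 and Cox5a by 0.27.

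**Figure D4:**
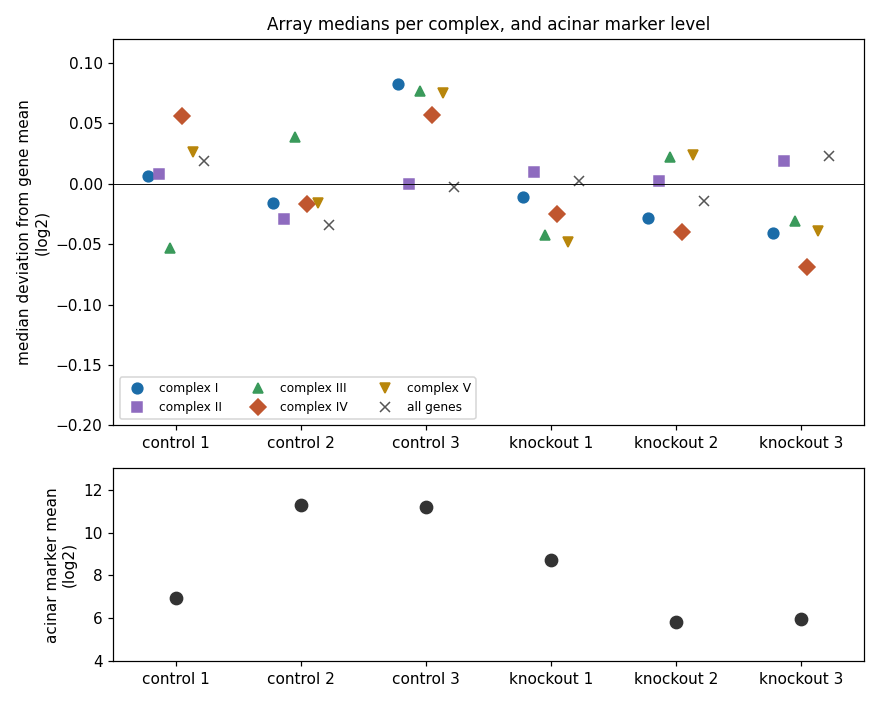
Top: for each array, the median over a complex's genes of the log2 deviation from the gene's own 6-array mean, with all genes as crosses. Bottom: mean log2 level of 22 acinar markers in the same arrays. Complex medians stay between -0.069 and 0.083 while the acinar mean runs from 5.82 to 11.27.

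Other genes of the pathway, from lists apart from the symbol rule, also gave 0 calls with limma, where 1.1% of all genes passed. Unadjusted p was under 0.05 for 4 assembly factors and 2 genes of quinone entry, and for 0 genes of the other lists. With a mean-variance trend 1 gene, Gpd2, passed. Of 36 measured assembly factors outside the rule, 21 had higher and 15 lower means, with a median difference of 0.058. Coa7, a complex IV assembly factor, had 8.35, 7.96 and 7.93 in controls and 7.77, 7.52 and 7.66 in knockouts (-0.43 ± 0.15, adjusted p = 0.298), but its other probe set differed by -0.0080. Timmdc1, which helps to build the membrane arm of complex I, had 8.20 to 8.32 in controls and 7.98 to 8.00 in knockouts (-0.26 ± 0.098, adjusted p = 0.341). Of 13 genes for coupling and for ADP, ATP and phosphate transport, the uncoupling protein gene Ucp3 and the creatine kinase gene Ckmt2 had the smallest p, both at dim levels (-0.24 and 0.14).

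The 20 factors for nuclear and mitochondrial DNA transcription had a median difference of -0.047. Ppargc1a, a coactivator that drives mitochondrial gene programmes, had 3.99, 4.84 and 4.37 in controls and a mean of 3.90 ± 0.093 (SD, n = 3) in knockouts. These dim groups overlapped, since control 1 lay just under the highest knockout (-0.50 ± 0.21, adjusted p = 0.391), and its other 4 probe sets, dimmer still, differed by -0.91 to -0.15. Gabpb1, a subunit of an ETS factor that acts on many of these promoters, differed by 0.23 ± 0.099 without overlap (adjusted p = 0.389). Nrf1, a main activator of respiratory chain genes, differed by -0.049 ± 0.10, and Tfam, which packages mitochondrial DNA, by -0.056 ± 0.11.

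Among 21 genes that feed electrons into the quinone pool or shuttle them into mitochondria, Gpd2 had the smallest p. It encodes the mitochondrial glycerol phosphate dehydrogenase, which in beta cells passes glycolytic electrons to the chain. It had 11.65, 11.30 and 11.51 in controls and 11.03, 10.63 and 10.77 in knockouts, without overlap (-0.68 ± 0.15, adjusted p = 0.117). Its other 3 probe sets differed by -0.80, -0.92 and -2.22, all without overlap, with adjusted p of 0.103, 0.0550 and 0.0944. The mean over its probe sets differed by -1.15 (adjusted p = 0.00886), a call that the brightest probe set alone did not give. Over the other alternatives its adjusted p ran from 0.032 (mean-variance trend) to 0.391 (acinar covariate). Coq2, of ubiquinone synthesis, differed by 0.27 ± 0.11 (adjusted p = 0.372). Gpd2's difference was not tested against that of any complex.

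Nuclear genes of the respiratory chain are known to share promoter elements for NRF1 and for the ETS factor GABP, and these were looked up in RefSeq promoter windows of 300 bases (250 before to 50 after the start, GRCm38.p6). Of the 92 members 75 had a window, 80 windows in all. On either strand, the NRF1 motif (GCGC, then any base, then TGCGC) was found in 18 of 80 windows (22.5%), against 4.6% of all 32851 windows. The ETS letters CCGGAAG were found in 19 of 80 (23.8%), against 8.86%. The ESRRA letters TCAAGGTCA were found in 2 of 80 (2.5%), against 0.423%. The PPAR response element as an exact repeat (AGGTCA, any base, AGGTCA) was found in 0 of 80 windows, and in 0.0396% of all windows. The ESRRA letters end in the AGGTCA that the PPAR repeat holds at both ends, so these searches share letters. A match is a run of letters, not a measured site, and the missing repeat says only that these letters are not in these windows.

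The windows of Ndufs5 and Cox8a, which had the smallest p of complexes I and IV, are shown with that of Sdhd, which holds 3 of the motifs. They were picked by hand. The genes with the smallest p of complexes II, III and V (Sdha, Uqcr11 and Atp5g2) also have windows with matches, not shown here. Capitals mark the motif matches and all windows read 5′ to 3′.
Ndufs5, chr4:123718137-123718436 (- strand): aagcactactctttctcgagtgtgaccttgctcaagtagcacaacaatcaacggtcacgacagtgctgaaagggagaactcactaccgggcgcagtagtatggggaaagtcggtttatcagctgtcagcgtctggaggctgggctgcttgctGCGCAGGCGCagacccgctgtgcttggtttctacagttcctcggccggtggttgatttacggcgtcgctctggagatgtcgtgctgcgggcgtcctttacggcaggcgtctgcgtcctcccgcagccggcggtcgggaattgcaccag
Cox8a, chr19:7217567-7217866 (- strand): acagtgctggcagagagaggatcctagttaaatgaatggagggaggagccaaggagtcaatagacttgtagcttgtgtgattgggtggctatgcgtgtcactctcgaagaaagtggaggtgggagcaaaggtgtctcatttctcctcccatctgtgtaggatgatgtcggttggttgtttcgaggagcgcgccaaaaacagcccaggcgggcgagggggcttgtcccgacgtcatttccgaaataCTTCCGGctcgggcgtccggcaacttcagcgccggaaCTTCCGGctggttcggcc
Sdhd, chr9:50603800-50604099 (- strand): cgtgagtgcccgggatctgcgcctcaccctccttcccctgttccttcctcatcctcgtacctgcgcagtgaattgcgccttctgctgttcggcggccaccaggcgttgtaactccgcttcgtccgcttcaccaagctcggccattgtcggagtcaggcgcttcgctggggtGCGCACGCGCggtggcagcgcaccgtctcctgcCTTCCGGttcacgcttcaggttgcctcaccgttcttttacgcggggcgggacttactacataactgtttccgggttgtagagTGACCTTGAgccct
Ndufs5 has 1 NRF1 match and no ETS match, and Cox8a has 2 ETS matches and no NRF1 match. Sdhd, whose level differed by 0.056 ± 0.099, has 1 match each for NRF1, ETS and ESRRA. The islet arrays measured transcripts and no binding at these promoters.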

How the data were processed

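RNA from islets of 6 mice was measured on 1-colour Affymetrix mouse arrays. The values are log2 expression per probe set as deposited; RMA is named in the submitters' processing notes, with no version. Scanner files and detection calls were not used here. Of 45101 probe sets, 64 manufacturer controls were left out. Symbols came from the platform annotation: 34945 of 45037 probe sets had a single symbol, 932 several and 9160 none, and the 10 probe sets that name a member beside another symbol were left out. The test was lmFit and eBayes from limma 3.58.1, run in R 4.3.3 as a two-sided test with no covariates and with Benjamini-Hochberg adjustment over 45037 probe sets. Intervals are limma's moderated 95% intervals, and 3 arrays per group limit their precision. The scripts were tested on simulated data of this comparison, where most 4-fold changes were called, but a smaller share of 2-fold changes and hardly any 1.5-fold changes. A count of 0 calls therefore says little about changes of 1.5-fold or less.

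The members and lists were chosen with earlier results of these data known. Named genes were taken by rule: in each complex the 3 members with the smallest p, the brightest and the dimmest, all members of the paralogue families and of complex II with Cyc1 and Cycs, and the 2 smallest p of each pathway list. Other members were named after their values were seen. Alternatives covered centring, renormalization, a filter on low values, the replicate block, an acinar covariate, left-out arrays, a mean-variance trend and other choices of probe sets and genes.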

Additional observations from a re-analysis of the deposited data

How the results depend on the processing

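The count of 0 members past adjusted p 0.05, in either direction, was also found under each of the 15 alternatives run, which says little about small changes that 3 arrays per group rarely call, with the lowest adjusted p of any member between 0.0653 (Cox7c, mean of all probe sets) and 0.531. With a mean-variance trend 14 members had an unadjusted p under 0.05. Over all probe sets the 404 calls became 246 with the replicate block, 129 with the acinar covariate, 54 without controls 2 and 3 and 887 with the trend, and ranged from 152 to 783 with 1 array left out. The 200 genes called became 315 after the filter on low values, 123 with the block, 61 with the covariate, 33 without controls 2 and 3 and 486 with the trend, and ranged from 77 to 335. Arrays with equal replicate numbers had correlations of deviations of -0.0540, 0.141 and 0.00500, beside -0.129 to 0.105 for unequal numbers. Deviations from means of 3 arrays cannot show or exclude pairing. The block gave 0 calls on members, as did the fit without it. The complex II median was 0.075 after centring, -0.018 after renormalization and -0.042 over all probe sets. The complex III median was 0.033 without controls 2 and 3. With 1 array left out, the complex medians ranged from -0.081 (without control 1) to -0.0075 (without control 3) for complex I, against -0.046 with all arrays, and from -0.10 (without control 1) to 0.0048 (without control 3) for complex III, against -0.039, with -0.00049 without control 2 and -0.021 without knockout 1. They ranged from -0.13 (without control 2) to -0.082 (without control 3) for complex IV, against -0.13, with -0.086 without knockout 1, and from -0.11 (without knockout 2) to -0.0076 (without control 3) for complex V, against -0.077. Signs of small differences turned as follows. After centring: Ndufb7 0.015, Sdhb 0.042, Cox6a1 0.012, Cyc1 0.014. After renormalization: Ndufb7 0.012, Uqcrb -0.0004, Uqcrc1 -0.024. With the acinar covariate: Ndufb4 0.16, Sdhb 0.017, Cox7b2 0.24, Cox7a1 -0.21, Cyc1 0.038. Without controls 2 and 3, where the lone control is assumed to vary like the other arrays: Sdhb 0.046, Uqcrh 0.0095, Cox7b2 0.018, Atp5a1 -0.024, Cox6a1 0.0011, Cox6a2 0.21, Cox7a1 -0.051, Cyc1 0.068. Over all probe sets of a gene: Sdha -0.13, Uqcr10 0.21, Uqcrb -0.073, Cox5b -0.032, Atp5g2 0.055. With 1 array left out the ranges that crossed 0 were -0.65 to 0.065 for Ndufb4, -0.04 to 0.02 for Sdhb, -0.01 to 0.026 for Uqcrb, -0.41 to 0.071 for Cox7b2, -0.012 to 0.022 for Atp5a1, -0.59 to 0.10 for Cox6a2, -0.17 to 0.19 for Cox7a1, -0.18 to 0.018 for Atp5g1, -0.41 to 0.048 for Ndufa4l2 and -0.093 to 0.0048 for Cyc1. None of these genes passed the test in any alternative, and the cause of these turns was not tested. Gpd2 passed with the trend (-0.68, adjusted p = 0.032) and over its probe sets together (-1.15).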
